A study of Homo sapiens with 12 samples.

Results

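Vitamin A is handled by a short chain of proteins, and the 9 genes described here stand at its main steps: uptake (STRA6), binding (CRABP2), conversion of retinal (DHRS3, ALDH1A3), breakdown of retinoic acid (CYP26B1), the retinoic acid receptors (RARA, RARB, RARG) and the responder gene RARRES1. They were selected by gene symbol from the 24556 genes of a deposited expression table, with the means of all 4 groups of the study in view, so their levels are given as a description, with no p-value. All 9 were found. The values are FPKM, sequenced fragments divided by transcript length and library size, from RNA sequencing of bulk RNA of LM2 cells. In bulk RNA, fewer cells expressing a gene and less RNA per cell cannot be told apart.

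LM2 is a lung-metastatic subline of MDA-MB-231, a human triple-negative breast cancer line. The 4 groups of 3 libraries each were LM2 cells transduced with a short hairpin RNA (shRNA) against EZH2, LM2 cells transduced with a scramble shRNA, LM2 cells transfected with a small interfering RNA (siRNA) against ZRANB1, and LM2 cells transfected with a scramble siRNA. EZH2 is the enzyme of Polycomb repressive complex 2 that methylates histone H3 at silenced genes, and ZRANB1 is a deubiquitinase. All groups share 1 line and a medium with fetal bovine serum. No retinoid treatment is named in the labels, the number of hairpin or siRNA sequences is not given in the sources used here, and no label ties replicate libraries to separate cultures. Spreads and p-values therefore measure only these samples and may be technical.

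As background, retinol circulates bound to RBP4 and enters cells through STRA6. Retinol dehydrogenases oxidize it to retinal, reductases such as DHRS3 return retinal to retinol, and ALDH1A enzymes oxidize retinal irreversibly to retinoic acid. CRABP2 carries retinoic acid to nuclear receptors, each a pair of a retinoic acid receptor and a retinoid X receptor bound to DNA, while CYP26 enzymes oxidize it for removal. Several of these genes, such as RARB, CYP26 genes, DHRS3 and STRA6, are themselves known to be induced by retinoic acid, and RARB is known to be silenced in many breast cancers.

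EZH2 itself was at 16.1, 16.1 and 17.3 FPKM with the EZH2 shRNA and at 34.2, 35.6 and 36.3 FPKM with the scramble shRNA, 46.6% of the control mean, and fell by limma with an adjusted p of 1.34e-05. ZRANB1 was at 9.05, 9.49 and 11.5 FPKM in the libraries labelled ZRANB1 siRNA and at 10.5, 11.5 and 12.1 FPKM with the scramble siRNA, 88.2% of the control mean, and was not called (log2 fold change -0.17, SE 0.11, adjusted p = 0.349 by limma). A lower level of its transcript was therefore not shown, and each direction below from that group is one of libraries labelled ZRANB1 siRNA. The EZH2 transcript was also called lower in that group, at 28.3, 30.4 and 32.4 FPKM against 46.5, 48.7 and 50.6 FPKM with the scramble siRNA (62.5% of the control mean, log2 fold change -0.66, adjusted p = 5.43e-05 by limma). Between the controls, it was higher with the scramble siRNA, at 137% of the scramble shRNA mean (adjusted p = 2.31e-04 by limma). The deposited columns do not trace libraries, because each row's 3 values within a group are sorted as text strings. The values of a group are therefore listed here from low to high. The scramble controls stood far apart, with 50.6% of 11929 tested genes called between them. Of the markers of MDA-MB-231 cells, VIM, CD44, KRT18, KRT8, EGFR and MSN had group means of at least 19.7 FPKM, whereas ESR1, PGR and CDH1, absent from that line, had at most 0.0450 FPKM. ERBB2, at 11.9 to 19.9 FPKM, and GATA3, at 3.70 to 6.74 FPKM, were listed as low or absent but were measured.

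STRA6, the membrane receptor that takes up retinol from its carrier RBP4, varied more between groups than any other of the 9 genes. It was at 1.82, 1.96 and 3.25 FPKM with the EZH2 shRNA and at 5.03, 5.38 and 6.81 FPKM with the scramble shRNA. In the libraries labelled ZRANB1 siRNA it was at 0.785, 0.800 and 1.30 FPKM, and with the scramble siRNA it was listed at 0, 0.0331 and 0.0534 FPKM. None of the 4 groups overlapped another: the order from high to low was scramble shRNA, EZH2 shRNA, ZRANB1 siRNA and scramble siRNA. On the log2(FPKM + 1) scale, used throughout for differences, the EZH2 shRNA group differed from its control by -1.03 (SE 0.22), at a ratio of means of 0.409, and the ZRANB1 siRNA group differed from its control by 0.92 (SE 0.12). The scramble siRNA differed from the scramble shRNA by -2.70 (SE 0.12). With a pseudocount of 0.1 in place of 1, that difference was -5.51 and that of the ZRANB1 siRNA group 3.03, since the added 1 compresses values near 0.

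Markers of other cell types (8 genes of blood, endothelium, adipocytes and muscle) had the same order of group means as STRA6 when summed: 1.36 FPKM with the EZH2 shRNA, 1.88 FPKM with the scramble shRNA, 0.975 FPKM in the libraries labelled ZRANB1 siRNA and 0.676 FPKM with the scramble siRNA. PECAM1 gave most of each sum but that of the scramble siRNA, with group means of 0.316 to 1.57 FPKM, while the endothelial cadherin gene CDH5 was at 0.0393 FPKM or less. The order of the sum was that of PECAM1, and the 8 markers did not share an order. The muscle gene DES was highest with the scramble siRNA, at a mean of 0.210 FPKM, and was at 0 with the EZH2 shRNA. The part of these markers in the STRA6 levels was not tested.

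CRABP2, which delivers retinoic acid to its receptors, had the opposite arrangement, with its highest levels in the siRNA groups. Its values were 1.52, 1.81 and 2.39 FPKM with the EZH2 shRNA and 1.44, 1.57 and 1.69 FPKM with the scramble shRNA, and these groups overlapped. They were 3.20, 3.58 and 4.85 FPKM in the libraries labelled ZRANB1 siRNA and 4.76, 5.65 and 7.24 FPKM with the scramble siRNA, which overlapped as well. All 6 siRNA values lay above all 6 shRNA values. The scramble siRNA mean was 3.75 times the scramble shRNA mean, a log2 difference of 1.41 (SE 0.16), whereas the EZH2 shRNA group differed from its control by 0.17 (SE 0.13) and the ZRANB1 siRNA group from its control by -0.50 (SE 0.21).

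**Figure D1:**
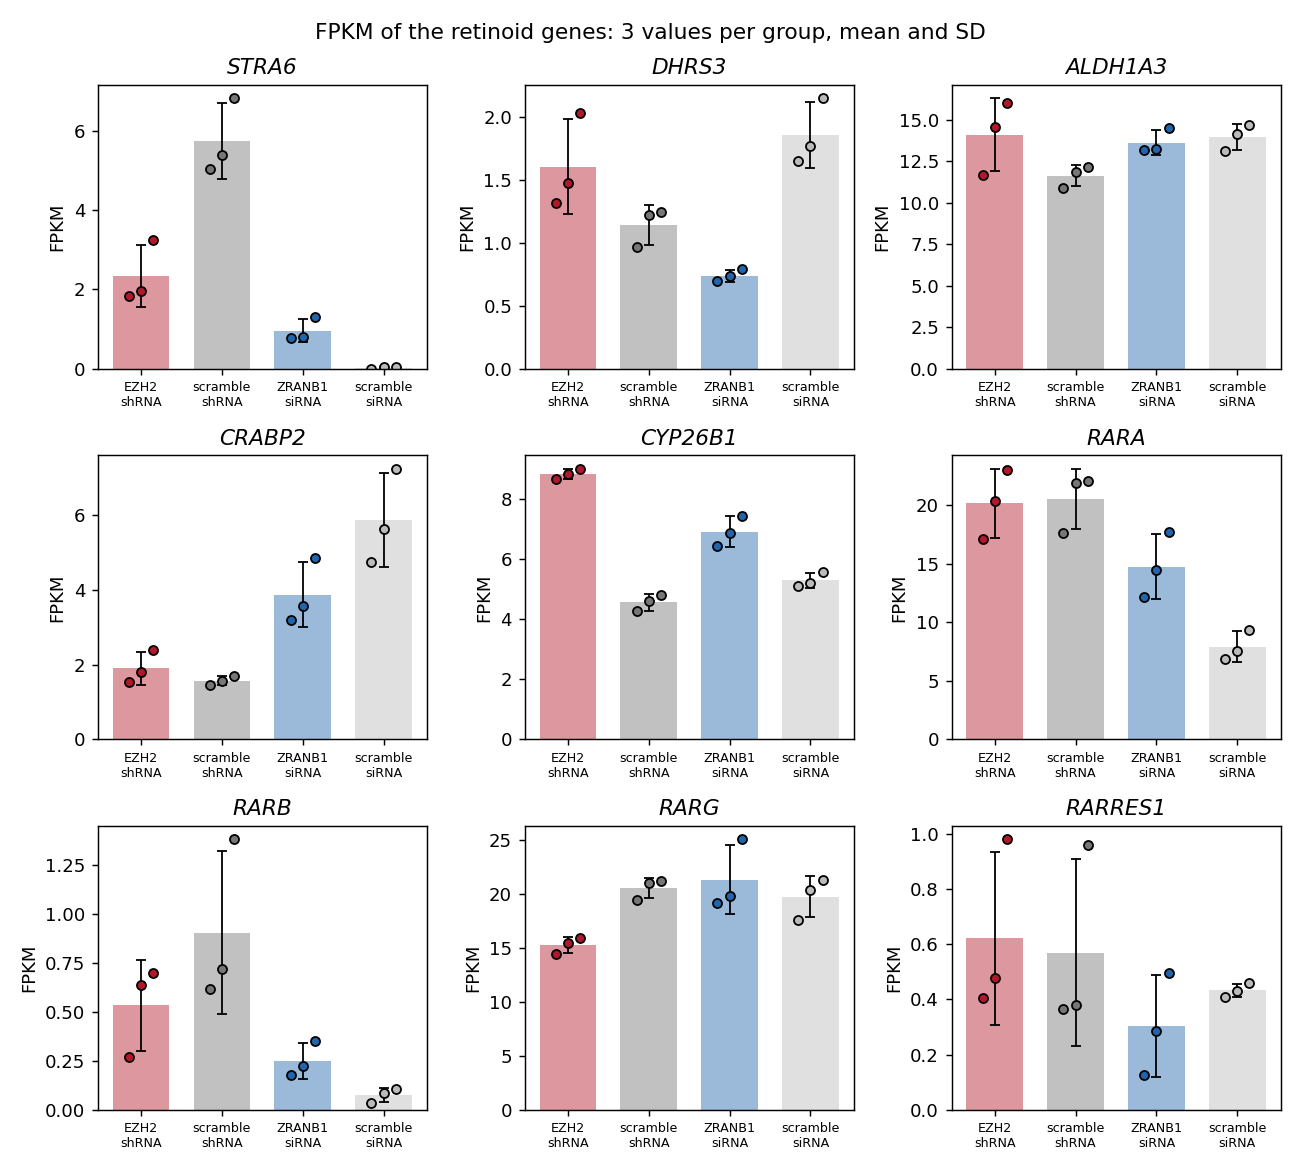
FPKM of each of the 9 retinoid genes by group: points are the 3 values of a group, bars their mean and error bars the SD (n = 3), with a separate vertical axis per gene. STRA6 has a mean of 0.0288 FPKM with the scramble siRNA, against 5.74 FPKM with the scramble shRNA, whereas ALDH1A3 has group means between 11.6 and 14.1 FPKM.

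DHRS3, the enzyme that reduces retinal back to retinol, was expressed at a low level, with 1.31, 1.47 and 2.03 FPKM with the EZH2 shRNA and 0.964, 1.22 and 1.25 FPKM with the scramble shRNA. It was at 0.694, 0.735 and 0.790 FPKM in the libraries labelled ZRANB1 siRNA, against 1.65, 1.77 and 2.15 FPKM with the scramble siRNA. The ZRANB1 siRNA group was thus the lowest of the 4 and overlapped none of the others. Its mean was 0.398 times that of its control, a log2 difference of -0.71 (SE 0.078), or -1.21 with a pseudocount of 0.1. The EZH2 shRNA group lay above its control without overlap, by 0.28 (SE 0.13), or 0.44 with a pseudocount of 0.1.

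ALDH1A3, which makes retinoic acid from retinal, had the narrowest range of group means among the 9 genes. Its values were 11.7, 14.6 and 16.0 FPKM with the EZH2 shRNA and 10.9, 11.9 and 12.1 FPKM with the scramble shRNA. They were 13.2, 13.2 and 14.5 FPKM in the libraries labelled ZRANB1 siRNA and 13.1, 14.1 and 14.7 FPKM with the scramble siRNA. Each group overlapped its own control, and the log2 differences were 0.25 (SE 0.13) for the EZH2 shRNA and -0.035 (SE 0.061) for the ZRANB1 siRNA. ALDH1A3 was the retinal dehydrogenase gene with a level here: ALDH1A1 and ALDH1A2 had group means of at most 0.0254 and 0.00856 FPKM, and ALDH8A1, which acts on 9-cis-retinal, at most 0.114 FPKM.

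CYP26B1, which oxidizes retinoic acid for removal, stood highest with the EZH2 shRNA, at 8.66, 8.83 and 8.99 FPKM, against 4.26, 4.60 and 4.80 FPKM with the scramble shRNA. It was at 6.43, 6.87 and 7.43 FPKM in the libraries labelled ZRANB1 siRNA, against 5.11, 5.19 and 5.55 FPKM with the scramble siRNA. No group overlapped another, and both the EZH2 shRNA and the ZRANB1 siRNA group lay above their own controls. The ratio of means was 1.94 for the EZH2 shRNA, a log2 difference of 0.82 (SE 0.043), and 1.31 for the ZRANB1 siRNA, a log2 difference of 0.33 (SE 0.061). Of the 9 genes it also varied least within groups, with a median coefficient of variation of 5.26%. The other enzymes of its family were listed at or near 0, CYP26A1 with group means of at most 0.0332 FPKM and CYP26C1 of at most 0.0388 FPKM.

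The retinoic acid receptors were represented by RARA and RARG, with little RARB. RARA was at 17.1, 20.3 and 23.0 FPKM with the EZH2 shRNA and at 17.6, 21.9 and 22.1 FPKM with the scramble shRNA, so these groups overlapped. It was at 12.2, 14.4 and 17.7 FPKM in the libraries labelled ZRANB1 siRNA and at 6.84, 7.54 and 9.36 FPKM with the scramble siRNA. The scramble siRNA group lay below all other values, and the ZRANB1 siRNA group overlapped the shRNA groups only at its highest value. The log2 difference from the control was -0.028 (SE 0.16) for the EZH2 shRNA and 0.82 (SE 0.19) for the ZRANB1 siRNA, and it was -1.28 (SE 0.16) between the scramble siRNA and the scramble shRNA. The table also lists RARA-AS1, an antisense gene at the same locus, with group means of 0.508 to 0.913 FPKM. The strand setting is not given in the sources used here, so reads of that pair cannot be told apart.

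RARG had its lowest values with the EZH2 shRNA, 14.4, 15.4 and 15.9 FPKM, against 19.4, 20.9 and 21.2 FPKM with the scramble shRNA. In the libraries labelled ZRANB1 siRNA it was at 19.1, 19.8 and 25.0 FPKM, and with the scramble siRNA at 17.6, 20.4 and 21.2 FPKM. The EZH2 shRNA group overlapped none of the others, and those 3 overlapped each other. Its log2 difference was -0.41 (SE 0.054), at a ratio of means of 0.743, while the ZRANB1 siRNA group differed from its control by 0.10 (SE 0.14).

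RARB, itself a receptor and a known retinoic acid target, was under 1 FPKM in 11 of its 12 values. It was at 0.269, 0.635 and 0.696 FPKM with the EZH2 shRNA and at 0.614, 0.716 and 1.38 FPKM with the scramble shRNA. It was at 0.175, 0.223 and 0.353 FPKM in the libraries labelled ZRANB1 siRNA and at 0.0351, 0.0858 and 0.107 FPKM with the scramble siRNA. The group means followed the same order as those of STRA6 and RARA, with the scramble siRNA below all other values and overlap between the EZH2 shRNA group and both its neighbours in that order. The log2 differences were -0.30 (SE 0.22) for the EZH2 shRNA, 0.21 (SE 0.067) for the ZRANB1 siRNA and -0.80 (SE 0.18) between the scramble controls, or -0.67, 0.98 and -2.46 with a pseudocount of 0.1.

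**Figure D2:**
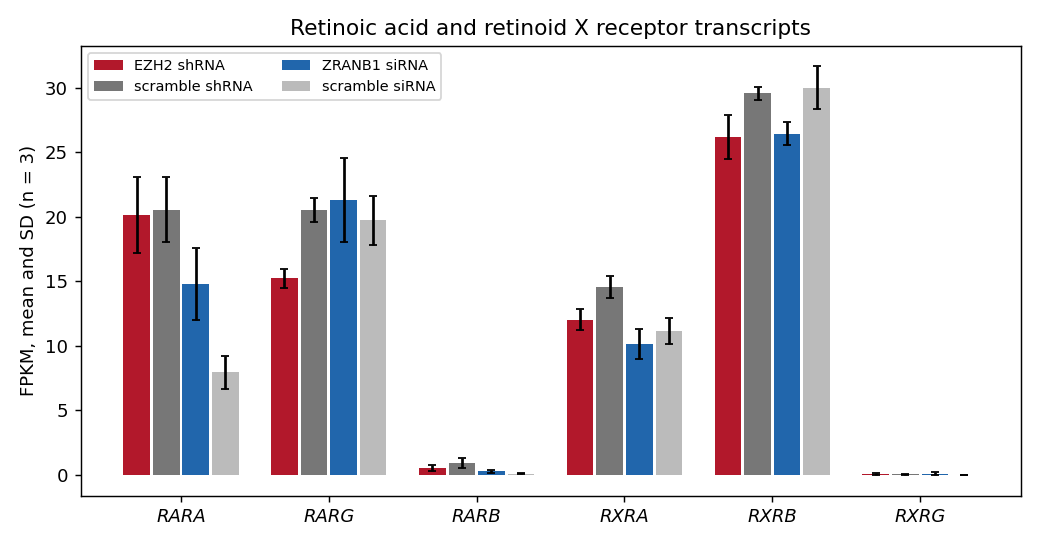
Mean FPKM (bars) and SD (n = 3) of the retinoic acid receptor genes RARA, RARG and RARB and the retinoid X receptor genes RXRA, RXRB and RXRG in the 4 groups. RARA has means of 20.2, 20.5, 14.8 and 7.92 FPKM in the EZH2 shRNA, scramble shRNA, ZRANB1 siRNA and scramble siRNA groups, while RXRB stays between 26.2 and 30.0 FPKM.

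The balance between receptors was computed from group means because single values could not be matched by library. It therefore has no spread, and its differences between the 4 groups were not tested. RARA made up 56.1% of the summed RARA, RARB and RARG FPKM with the EZH2 shRNA and 49.0% with the scramble shRNA, against 40.7% in the libraries labelled ZRANB1 siRNA and 28.6% with the scramble siRNA. RARG made up 42.4%, 48.9%, 58.7% and 71.2% in these groups. The ratio of RARA to RARG was 1.32 with the EZH2 shRNA, 1.00 with the scramble shRNA, 0.693 with the ZRANB1 siRNA and 0.401 with the scramble siRNA. RARB was at most 2.15% of the sum. Between the shRNA groups the RARA means lay close together, at 20.2 FPKM with the EZH2 shRNA and 20.5 FPKM with the scramble shRNA, and those of RARG apart, at 15.2 and 20.5 FPKM in these groups.

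The promoters of the 3 genes with the same order of group means (STRA6, RARA and RARB) are shown with the letters that a retinoic acid receptor pair is known to bind. That order is one of means only: for RARA and RARB, the EZH2 shRNA group overlapped both its neighbours in it. In RefSeq (GRCh38.p14; the expression values were made on hg19), all 9 genes matched, with 20 windows running from 250 bases before to 50 bases after an annotated start. The half-sites searched on both strands were the core AGGTCA, its variant AGTTCA, and the forms with a leading G, which are GGGTCA as well as GGTTCA. The windows shown are at the first listed start of RARB (of 4; chr3:25428013-25428312, plus strand), STRA6 (of 5; chr15:74212210-74212509, minus strand) and RARA (of 3; chr17:40308930-40309229, plus strand). Capitals mark half-sites on either strand.
RARB: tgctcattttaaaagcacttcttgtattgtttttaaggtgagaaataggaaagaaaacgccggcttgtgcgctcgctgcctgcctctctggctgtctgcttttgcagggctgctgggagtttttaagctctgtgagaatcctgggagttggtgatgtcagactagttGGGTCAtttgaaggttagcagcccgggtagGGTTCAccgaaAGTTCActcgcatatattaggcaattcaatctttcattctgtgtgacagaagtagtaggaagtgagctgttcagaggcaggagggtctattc
STRA6: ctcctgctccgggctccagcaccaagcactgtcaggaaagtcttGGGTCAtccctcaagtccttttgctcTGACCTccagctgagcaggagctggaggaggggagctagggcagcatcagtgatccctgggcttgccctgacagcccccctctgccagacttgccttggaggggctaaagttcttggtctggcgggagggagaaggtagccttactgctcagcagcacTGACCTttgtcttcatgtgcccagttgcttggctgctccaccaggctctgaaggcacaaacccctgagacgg
RARA: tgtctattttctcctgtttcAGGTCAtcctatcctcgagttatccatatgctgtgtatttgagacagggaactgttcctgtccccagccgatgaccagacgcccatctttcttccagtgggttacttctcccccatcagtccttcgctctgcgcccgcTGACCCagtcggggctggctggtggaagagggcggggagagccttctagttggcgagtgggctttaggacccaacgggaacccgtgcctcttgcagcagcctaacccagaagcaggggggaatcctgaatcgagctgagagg

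In the RARB window, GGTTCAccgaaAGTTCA (capitals, half-sites) lies 53 to 37 bases before the start, at chr3:25428210-25428226. This is a direct repeat of half-sites spaced by 5 bases (DR5), the arrangement of the well-known retinoic acid response element of that promoter. Such a repeat occurred in 31 of 35116 windows in the table (0.0883%) and in 1 of the 20 windows of these genes. The strings searched hold both half-sites of that known RARB element, so this match was fixed in advance and nothing is read from it. A half-site alone was common, in 38.6% of all windows and in 9 of the 20. The RARB window shown holds 3 half-sites, with 2 of them in the DR5, the STRA6 window 3 and the RARA window 2. Each was the window with the most half-sites of its gene: the other 2 RARA windows and 3 of the other 4 STRA6 windows hold none. Half-sites also occurred in the window of CRABP2, whose order of groups differs, and in 2 of the 3 windows of DHRS3. The windows of ALDH1A3, CYP26B1, RARG and RARRES1, with 1 start each, hold none. Which start gave the transcripts cannot be told from FPKM per gene, and a match is a description of letters, not of binding.

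RARRES1, named for its induction by a retinoid acting on the receptors, was under 1 FPKM in all 12 values and did not separate the groups. Its values were 0.406, 0.478 and 0.980 FPKM with the EZH2 shRNA and 0.366, 0.381 and 0.961 FPKM with the scramble shRNA. They were 0.127, 0.285 and 0.495 FPKM in the libraries labelled ZRANB1 siRNA and 0.409, 0.430 and 0.458 FPKM with the scramble siRNA. Neighbouring groups in the order of means overlapped throughout, and the log2 differences were 0.051 (SE 0.23) for the EZH2 shRNA and -0.15 (SE 0.12) for the ZRANB1 siRNA, or -0.51 for the ZRANB1 siRNA with a pseudocount of 0.1.

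Across the 9 genes, levels averaged over all 12 values ran from 0.441 FPKM for RARB to 19.2 FPKM for RARG, the percentiles 47.3 and 81.3 of all genes in the table. The differences of the EZH2 shRNA and ZRANB1 siRNA groups from their controls went in both directions. Their median over the 9 genes was 0.051 for the EZH2 shRNA and 0.10 for the ZRANB1 siRNA, against -0.014 and -0.017 over all tested genes. Between the scramble controls the median was -0.058, against 0.011 over all tested genes. RARB and RARRES1 fell under the filter of a mean of 1 FPKM, and 7 of the 9 genes entered the fit across all genes. Leaving out 1 value turned the sign of 5 of the 27 differences and moved 11 by over 1.5 times. Among those moved were RARA (-0.13 to 0.078) and CRABP2 (0.053 to 0.27) with the EZH2 shRNA. None of the 11 differences called in that fit was so moved or turned. A call already needs a difference large against the spread of the same values, so this adds no support.

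With the EZH2 shRNA, 3 of the 7 were called at an adjusted p below 0.05 (CYP26B1 higher, STRA6 and RARG lower), beside 6.41% of all tested genes (3.39% higher and 3.03% lower). In the libraries labelled ZRANB1 siRNA, 4 were called (CYP26B1, STRA6 and RARA higher, DHRS3 lower), beside 16.6% (10.1% higher and 6.50% lower). Between the scramble siRNA and the scramble shRNA, 4 were called (DHRS3 and CRABP2 higher, STRA6 and RARA lower), beside 50.6% (25.5% higher and 25.1% lower). Groups did not overlap for 4, 5 and 7 of the 9 genes in these comparisons, beside 22.1%, 36.4% and 59.9% of all tested genes. Since these comparisons were used in choosing the genes, these calls are not valid tests of the genes. Nothing is read from the calls, their directions or these counts. The scramble siRNA enters both of the last comparisons and the scramble shRNA the first and last, so their differences are not independent of each other.

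**Figure D3:**
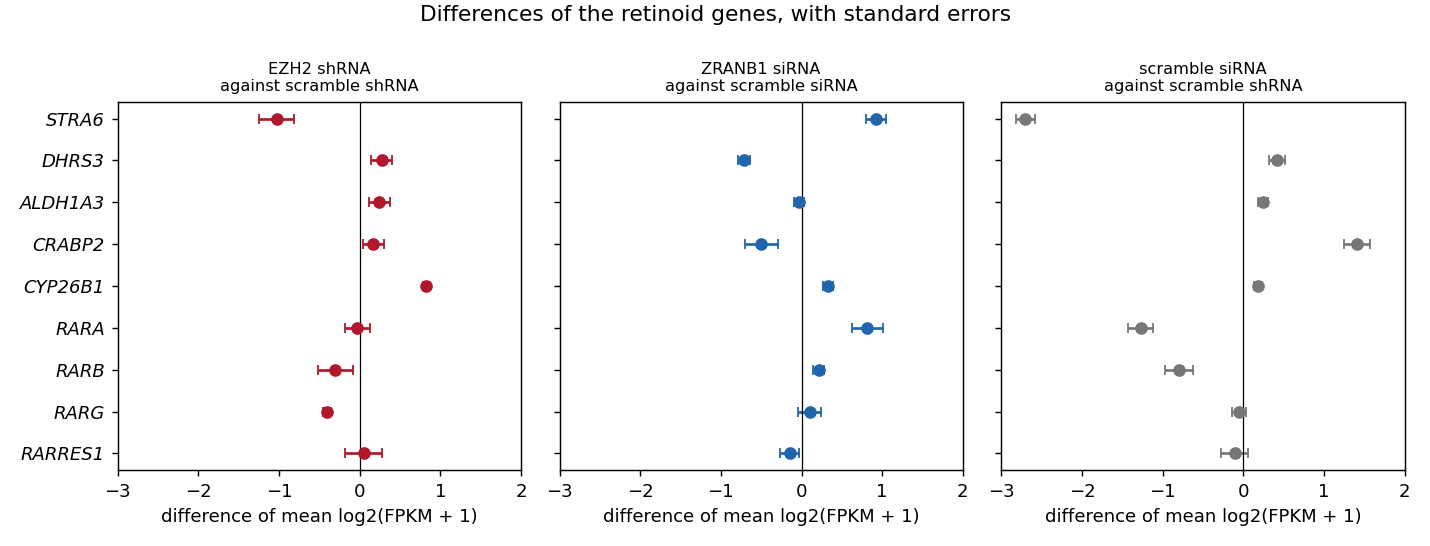
Difference of mean log2(FPKM + 1) between groups for each of the 9 genes, with its standard error, in the 3 comparisons. STRA6 spans -2.70 to 0.92, CYP26B1 lies above 0 in each panel, and RARA is at -0.028 for the EZH2 shRNA, at 0.82 for the ZRANB1 siRNA and at -1.28 between the scramble controls.

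The remaining genes of the pathway were taken from 7 lists of 74 genes set by role, which the choice of the 9 genes did not use. The lists were set with earlier results of these data known, so they are not independent of the data. Of the 74 genes, 72 were matched, 30 averaged 1 FPKM or more across the 12 values and were tested, and 14 were at 0 in every group. None of the 3 synthesis and 2 degradation genes in these lists reached that mean. Among those at 0 were RBP4, the retinol carrier, and CRABP1, another retinoic acid binding protein. With the EZH2 shRNA 4 of the 30 rose and 0 fell (13.3%, beside 6.41% of all tested genes). In the libraries labelled ZRANB1 siRNA 3 rose and 3 fell (20.0%, beside 16.6%), and with the scramble siRNA against the scramble shRNA 12 rose and 7 fell (63.3%, beside 50.6%).

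Genes known to respond to retinoic acid gave 3 of the 4 rises with the EZH2 shRNA, out of 9 tested of 24 listed, and 0 were called lower. The called share was 33.3%, beside 6.41% of all tested genes, and was not itself tested. The median log2 fold change of the 9 was 0.076. GPRC5A, an orphan receptor gene first found by its induction by retinoic acid, was at 58.7, 61.1 and 69.0 FPKM with the EZH2 shRNA and at 42.8, 42.9 and 45.2 FPKM with the scramble shRNA, a log2 fold change of 0.52 (SE 0.076, adjusted p = 0.00256 by limma). RAI14, a retinoic acid induced gene for an actin-associated protein, averaged 63.0 ± 5.51 FPKM with the EZH2 shRNA and 48.6 ± 2.31 FPKM with the scramble shRNA (SD, n = 3 each; adjusted p = 0.0202 by limma). TGM2, the tissue transglutaminase gene, averaged 309 ± 26.7 FPKM with the EZH2 shRNA and 233 ± 21.1 FPKM with the scramble shRNA (SD, n = 3 each; adjusted p = 0.0383 by limma). For each of these 3 genes, the EZH2 shRNA values lay above the scramble shRNA values without overlap. PLAAT4, in the same list, lay the other way without overlap and was not called. It was at 8.91, 9.91 and 13.5 FPKM with the EZH2 shRNA and at 14.0, 15.6 and 18.4 FPKM with the scramble shRNA (log2 fold change -0.54, SE 0.22, adjusted p = 0.187 by limma). With the 6 values of these groups alone, GPRC5A was called, while RAI14 and TGM2 were not, and TGM2 lost its call whenever 1 value was left out and RAI14 in 3 of 6 such cases.

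In the libraries labelled ZRANB1 siRNA, 2 of the same 9 tested genes rose and 1 fell (33.3%, beside 16.6% of all tested genes). BHLHE40, a helix-loop-helix repressor gene, was at 36.5, 36.9 and 38.7 FPKM against 23.1, 24.5 and 25.5 FPKM with the scramble siRNA (log2 fold change 0.60, SE 0.073, adjusted p = 1.86e-04 by limma). PLAAT4, listed in the table by its older symbol RARRES3 (retinoic acid receptor responder 3), was at 4.26, 5.17 and 7.21 FPKM against 2.03, 2.20 and 4.14 FPKM with the scramble siRNA, with an adjusted p of 0.030 by limma that was lost in 6 of 12 other settings. GPRC5A fell to 87.5, 90.8 and 96.4 FPKM, against 145, 154 and 162 FPKM with the scramble siRNA (log2 fold change -0.74, SE 0.076, adjusted p = 4.95e-05 by limma). GPRC5A thus passed the test in opposite directions in the EZH2 shRNA and ZRANB1 siRNA groups relative to their own controls. The difference between these 2 log2 fold changes was not tested.

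Between the scramble controls, 3 of these 9 genes rose and 3 fell (66.7%, beside 50.6% of all tested genes). The scramble siRNA group was 1.79 (SE 0.076) above the scramble shRNA group for GPRC5A and 0.57 (SE 0.096) above it for THBD, the thrombomodulin gene, with adjusted p of 8.56e-09 and 4.73e-04 by limma. Its log2 fold change was -2.20 (SE 0.22) for PLAAT4 and -0.85 (SE 0.073) for BHLHE40, with adjusted p of 9.56e-06 and 2.37e-06 by limma. The retinoic acid responsive HOX genes were mostly at or near 0, and HOXA2, HOXA4, HOXA5 and HOXB1 were listed at 0 in all groups.

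Of the retinoid X receptors, RXRA and RXRB were tested and neither was called for the EZH2 shRNA or the ZRANB1 siRNA. RXRA was at 11.3, 11.9 and 12.9 FPKM with the EZH2 shRNA and at 13.7, 14.6 and 15.3 FPKM with the scramble shRNA, a log2 fold change of -0.26 (SE 0.095, adjusted p = 0.145 by limma). It averaged 10.1 ± 1.18 FPKM in the libraries labelled ZRANB1 siRNA and 11.1 ± 0.988 FPKM with the scramble siRNA (SD, n = 3 each; adjusted p = 0.425 by limma). With the scramble siRNA over the scramble shRNA, RXRA fell, with a log2 fold change of -0.36 (adjusted p = 0.00815 by limma). RXRB averaged 26.2 ± 1.69 FPKM with the EZH2 shRNA and 29.6 ± 0.473 FPKM with the scramble shRNA (SD, n = 3 each; adjusted p = 0.169 by limma). Its means were 26.4 ± 0.897 FPKM in the libraries labelled ZRANB1 siRNA and 30.0 ± 1.65 FPKM with the scramble siRNA (SD, n = 3 each; adjusted p = 0.105 by limma). RXRG had group means of at most 0.0711 FPKM.

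Receptor coactivators and corepressors, of which 13 of 14 were tested, had 1 rise and 0 falls with the EZH2 shRNA (7.69%, beside 6.41% of all tested genes). NRIP1, a corepressor that binds ligand-bound nuclear receptors and is itself induced by retinoic acid, was at 2.97, 3.24 and 4.29 FPKM with the EZH2 shRNA and at 1.39, 1.88 and 1.90 FPKM with the scramble shRNA (log2 fold change 0.72, SE 0.13, adjusted p = 0.00796 by limma). That call was lost with the 6 values of these groups alone (adjusted p = 0.0684 by limma). In the libraries labelled ZRANB1 siRNA 1 rose and 2 fell (23.1%, beside 16.6% of all tested genes). The coactivator gene NCOA3 rose to 10.3 ± 0.774 FPKM, against 7.13 ± 0.254 FPKM with the scramble siRNA (adjusted p = 0.00408 by limma). TBL1X, a part of the NCOR corepressor complex, fell to 11.9 ± 0.258 FPKM, against 14.4 ± 0.520 FPKM with the scramble siRNA, and the corepressor scaffold gene SIN3A fell to 15.7 ± 0.310 FPKM, against 18.2 ± 0.227 FPKM with the scramble siRNA (SD, n = 3 each), with adjusted p of 0.0147 and 0.0329 by limma. SIN3A lost its call whenever 1 value was left out and TBL1X in 2 of 6 such cases.

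Between the scramble controls 4 of these 13 genes rose and 3 fell (53.8%, beside 50.6% of all tested genes). The log2 fold change of the scramble siRNA over the scramble shRNA was 0.68 for NRIP1 and 0.47 for the Mediator subunit gene MED1, and it was -0.60 for NCOA3 and -0.23 for the acetyltransferase gene EP300, with adjusted p from 1.85e-04 for NCOA3 to 0.0171 for EP300 by limma. The EP300 call was lost in 1 of 6 cases with 1 value left out (adjusted p = 0.0635 by limma).

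The conversion and carrier genes did not pass the test for the EZH2 shRNA or the ZRANB1 siRNA. Of these, 0 of 5 tested conversion genes and 0 of 1 tested carrier were called for either. RDH10, which makes the retinal used for retinoic acid, averaged 2.34 ± 0.171 FPKM with the EZH2 shRNA and 2.35 ± 0.175 FPKM with the scramble shRNA, and 2.80 ± 0.355 FPKM in the libraries labelled ZRANB1 siRNA and 3.46 ± 0.300 FPKM with the scramble siRNA (SD, n = 3 each). Of all tested genes, 50.6% were called between the scramble controls, against 6.41% for the EZH2 shRNA and 16.6% for the ZRANB1 siRNA. Between these controls 4 of the 5 conversion genes rose and 0 fell. Their log2 fold changes, scramble siRNA over scramble shRNA, were 0.41 for RDH10, 0.52 for the retinal reductase gene RDH11, 0.35 for the retinol saturase gene RETSAT and 0.71 for the carbonyl reductase gene DHRS4, with adjusted p of 0.00375, 2.33e-04, 0.00228 and 0.00472 by limma. FABP5, a fatty acid binding protein that can also carry retinoic acid, rose as well, to 137 ± 8.35 FPKM with the scramble siRNA, against 85.0 ± 7.11 FPKM with the scramble shRNA (SD, n = 3 each; adjusted p = 1.88e-05 by limma). DHRS4 has close copies in the genome, so its level is uncertain.

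**Figure D4:**
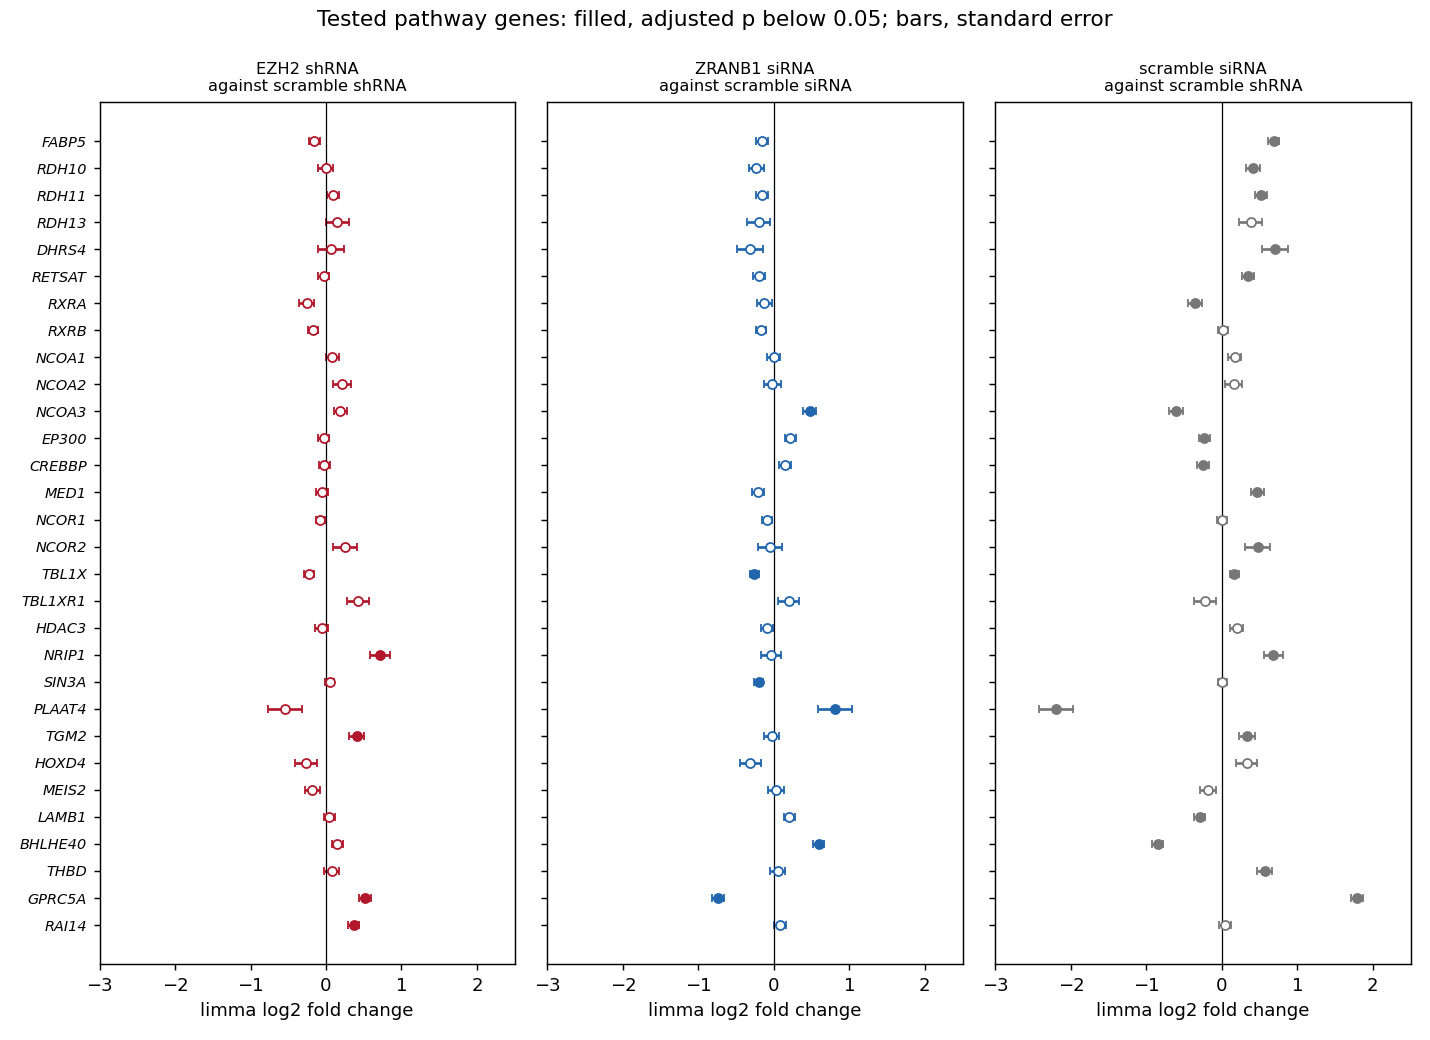
Limma log2 fold change with standard error for the 30 tested pathway genes outside the 9, in the 3 comparisons, with filled points for an adjusted p below 0.05. Filled points number 4 for the EZH2 shRNA, 6 for the ZRANB1 siRNA and 19 between the scramble controls.

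The genes most like STRA6, which had the widest range of group means, were sought by the distance between centred group means of log2(FPKM + 1), over 4 groups and all tested genes. The nearest were LCN2 at 0.211, PPL at 0.223 and PARD6B at 0.244. LCN2, the secreted lipocalin gene, averaged 2.09 FPKM with the EZH2 shRNA, 6.67 FPKM with the scramble shRNA, 1.11 FPKM in the libraries labelled ZRANB1 siRNA and 0.0753 FPKM with the scramble siRNA. With 4 points per gene the likeness is a description of levels only.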

How the data were processed

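The authors deposited 1 table of FPKM values for 12 libraries, with 26006 gene rows. The submitters' processing notes name hg19, TopHat2 2.1.1, Cufflinks 2.2.1, Cuffdiff 2.2.1 and SAMtools. Options, gene models and strand setting: not given in the sources used here. Of rows sharing a symbol, that with the highest mean was kept (for RXRB, 1 of 6 rows, the other 5 being 0). The text order was found in all rows with 3 different values, which leaves group means, SDs and single-gene tests unaffected. Values were tested as log2(FPKM + 1) where the mean over 12 values reached 1 FPKM, with limma 3.58.1 in R 4.3.3: 4 group means, 8 residual degrees of freedom, an intensity trend, Benjamini-Hochberg adjustment over 11929 genes, and a call below 0.05. SEs of the 9 genes come from the values of the 2 groups compared. No count or depth per library is known, so 3 values per group set the precision.

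The 9 genes and all lists were chosen with earlier results of these data known. Named pathway genes were up to 4 called genes per list by adjusted p, and all genes of the synthesis, degradation and retinoid X receptor lists. In simulated data, the EZH2 comparison recovered 62.7% of 1.5-fold changes and 94.0% of 2-fold changes of FPKM + 1 among 11929 genes. For genes near 1 FPKM such a change is a larger fold of FPKM itself, so recovery of FPKM changes of these sizes is lower there. Noise was drawn with 1 spread per gene averaged over all 4 groups, so the simulation cannot show how calls depend on that pooling. Alternatives tried were the compared groups alone, a pseudocount of 0.1, filters of 0 and 5 FPKM, no trend, 1 shift per group, and leaving out 1 value after a random order. Figures used matplotlib 3.10.9 in Python 3.11.15.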

Additional observations from a re-analysis of the deposited data

How the results depend on the processing

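The pathway calls with the EZH2 shRNA rest on a spread pooled over all 4 groups. With the 6 values of the compared groups alone, 1 of 30 pathway genes and 185 of 11929 genes were called, against 4 and 765, and with a filter at 5 FPKM 503 genes were called. Dropping 1 value per gene, after its group was put in random order, gave 2 to 3 pathway genes and 412 to 571 genes for the EZH2 shRNA, 3 to 5 and 1383 to 1433 for the ZRANB1 siRNA, and 15 to 18 and 5345 to 5438 between the scramble controls. The other settings kept each count of calls within 1.5 times. Without a filter, 58 pathway genes were tested, and 3 were called higher and 1 lower with the EZH2 shRNA, 2 higher and 5 lower for the ZRANB1 siRNA, and 14 higher and 9 lower between the scramble controls. None of the named pathway genes changed direction in the settings run. For the 9 genes, 11 of 27 log2 differences moved by more than 1 SD with a pseudocount of 0.1 and none changed sign among those called. With 1 shift per group, 0 of 27 moved by as much. The shifts were 0.0046 for the EZH2 shRNA, 0.024 for the ZRANB1 siRNA and -0.039 between the scramble controls. Each was smaller than every SD used for its comparison, so that 0 was fixed by the shifts and shows no stability. Leaving out 1 of 3 values cannot move a difference by 1 SD, so the 0 of 162 found there was fixed in advance and shows no stability. By direction, leaving out 1 value turned the sign of 5 of the 27: RARA (-0.13 to 0.078) and RARRES1 (-0.10 to 0.22) with the EZH2 shRNA, RARG (-0.015 to 0.17) for the ZRANB1 siRNA, and RARG (-0.11 to 0.019) and RARRES1 (-0.20 to 0.061) between the scramble controls. None of these was called, but a call already needs a difference large against the spread of the same values. No paired analysis was possible because the sorted columns carry no replicate numbers. Depth per library is unknown, so levels near 0, as of RARB, RARRES1 and STRA6 with the scramble siRNA, carry no counting interval.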

Other observations

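Some pathway genes fell under the filter and were not tested, and their levels are given here as values chosen after they were seen. SDR16C5, which oxidizes retinol to retinal, averaged 0.124 FPKM with the EZH2 shRNA and 0.170 FPKM with the scramble shRNA, and 0.774 FPKM in the libraries labelled ZRANB1 siRNA and 1.34 FPKM with the scramble siRNA. HOXB4, a retinoic acid responsive homeobox gene, averaged 0.407 FPKM with the EZH2 shRNA and 0.771 FPKM with the scramble shRNA, and 0.992 FPKM in the libraries labelled ZRANB1 siRNA and 1.63 FPKM with the scramble siRNA.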
